A study of Drosophila melanogaster with 21 samples.

Results

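The genes described here are the cuticle protein genes of the fly head. They were selected on their FlyBase symbols (those starting with Cpr, Ccp84A, Lcp, Edg or Twdl followed by a letter, and *Pcp*) and on 1 measured value, a mean of at least 0.5 CPM (counts per 1000000 counts of a library) over the 21 libraries. The symbols picked out 123 of the 17559 genes counted, and 41 of them reached the mean. Cpr itself was among these only by its spelling. It encodes NADPH-cytochrome P450 reductase, an enzyme and not a cuticle protein, stood at a mean of 206 CPM, and was left out of every count, which leaves 40 cuticle protein genes.

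The insect cuticle is secreted by the epidermis as chitin fibres in a matrix of structural proteins. The Cpr proteins, the largest family, carry the Rebers and Riddiford chitin-binding domain, and the Lcp (larval cuticle), Ccp84A, *Edg78E* and *Pcp* (pupal cuticle) proteins belong to the same family under older names. The Tweedle (Twdl) proteins are a separate family of cuticle proteins. Different members are used in larva, pupa and adult and in different parts of the body wall, and adult flies go on laying down cuticle after they eclose. In the eye, *Cpr72Ec* and *Cpr66D* are proteins of the corneal lens.

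RNA was sequenced from heads of F1 females in which *Elav-GAL4*, a driver active in neurons, drove RNA interference against homologs of genes of the human 3q29 deletion, in 7 groups of 3 libraries. *Cbp20/dlg1* and *Cbp20/Fsn* flies carried 2 hairpin lines each (107112 with 41136, and 107112 with 26577), and *Cbp20* flies carried line 107112. These 3 groups were set against Control KK, which had the driver and the empty KK line 60100. The *dlg1* flies (line 41136) and *Fsn* flies (line 26577) were set against Control GD, which had the driver in the wVDRC strain. Lines 41136 and 26577 have the GD background, so each pair joined a KK line with a GD line. All groups carried the driver on a w1118 chromosome and were raised at 25 °C. By the stock list of the study, Control KK, *Cbp20* and both pairs also carried 1 y1 allele of yellow, a cuticle pigment gene, which the GD groups did not. *Cbp20* is the small subunit of the nuclear cap-binding complex, *dlg1* encodes a scaffold protein of cell junctions and synapses, and *Fsn* encodes an F-box protein of a ubiquitin ligase. Each knockdown is 1 hairpin line in neurons, while cuticle genes are transcribed mostly in epidermis. Heads were shaken off frozen flies and pooled, and the age of the flies at collection is not given in the sources used here.

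The libraries held 17712938 to 28759171 gene counts, so that 3 counts in 1 library correspond to 0.104 to 0.169 CPM. *Cbp20* mRNA was lower in the 3 groups with the *Cbp20* hairpin (5.08 to 6.59 CPM) than in Control KK (14.3 to 14.7 CPM). The other targets changed less in whole heads. *dlg1* mRNA had 337, 352 and 371 CPM in *dlg1* heads, against 410, 408 and 387 CPM in Control GD, and did not pass the test (log2 fold change -0.19 ± 0.10, edgeR, adjusted p = 0.32). It was lower in *Cbp20/dlg1* than in Control KK (-0.35, edgeR, adjusted p = 0.024), and also in *Fsn* heads, which lack that hairpin, than in Control GD (-0.31, edgeR, adjusted p = 0.021). The *Fsn* libraries had 257, 367 and 351 CPM of *dlg1* mRNA, so replicate 1 was well below the others. *Fsn* mRNA had 19.9, 17 and 19.4 CPM in *Fsn* heads, against 26.5, 29.7 and 27.0 CPM in Control GD (-0.56 ± 0.08, edgeR, adjusted p = 7.2e-05). The summed level of 5 photoreceptor markers was 56426 to 68386 CPM over the 21 libraries. RNA of other parts differed between libraries. *Os-C*, an antennal gene, had no count in any Control KK library, 0.143 to 2.84 CPM in *dlg1* and *Fsn* libraries, and 2.5 to 17.4 CPM in the other 12 libraries. The *Cbp20* replicate 2 library stood apart from replicates 1 and 3 for many cuticle genes, and the counts of members and the changes of the genes that rose in *Cbp20* are given with and without it. Shares of all genes called are given only for the fit of all 21 libraries. The study's methods call the 3 libraries of a group biological replicates, each from pooled heads, and the tests measure the spread between them.

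Of the 82 genes below the mean of 0.5 CPM, 7 had no count in any library, and 32, those 7 included, had fewer than 3 counts in every library. The families differed in how many members reached the mean. It was reached by 29 of 70 Cpr genes, 3 of 7 Ccp84A genes, 2 of 17 Lcp genes, 3 of 24 Tweedle genes and 3 of 4 genes in the set of Edg genes with *Pcp*. The Lcp genes and Tweedle genes, most of which are known from larvae and pupae, were thus mostly at or near the limit of counting. *Cpr64Ad* was just inside the threshold at a mean of 0.548 CPM, and *TwdlU* was just outside it at 0.460 CPM. Of the 40 genes, 14 averaged at least 10 CPM, 18 were between 1 and 10 CPM, and 8 were between 0.5 and 1 CPM. All 40 passed the filter on low counts, as did 3 genes below the mean. *Cpr11A* reached the mean only through the *Cbp20* libraries (0.281 CPM over the other 18) and *Cpr64Ad* only through the *Fsn* libraries (0.462 CPM over the other 18). No library held more than 32.2% of the summed level of any member.

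A few genes made up most of the cuticle protein RNA. The 4 highest members gave 63.8% of the summed level and the 8 highest gave 83.6%. Per kilobase of exon, the scale on which genes can be set beside each other, *Cpr65Au* was first at 432 ± 63.2 CPM per kb (SD, 21 libraries), and *Cpr72Ec* averaged 170 ± 100 CPM per kb. The place of *Cpr72Ec* in the order depended on the group, with 323 CPM per kb in *dlg1* but 40.7 in *Cbp20*, where *Cpr67B* had 120 and *Cpr49Ag* 109. Over the 21 libraries *Cpr49Ag* (112 ± 28.3 CPM per kb) and *Cpr67B* (109 ± 16.9 CPM per kb) had similar means, with an SD that pools the 7 groups. Their order changed with the group. It was 62.8 ± 4.39 against 84.6 ± 5.99 CPM per kb in *Cbp20/dlg1*, and 127 ± 10.2 against 107 ± 3.89 in Control KK (SD, n = 3 each). Next were *Cpr49Ae* (79.1 ± 8.15 CPM per kb), *Cpr100A* (42.3 ± 28.8 CPM per kb) and *Cpr11B* (41.9 ± 10.9 CPM per kb). The order of the last pair also changed, with 99.6 against 40.2 CPM per kb in *Cbp20* and 25.4 against 35.5 in *dlg1*. *Cpr47Ee*, also among the 8 highest means in CPM, stood at 31.9 ± 6.55 CPM per kb. *Cpr65Au* had 355 to 593 CPM per kb and *Cpr49Ae* 63.2 to 91.2 CPM per kb over the 21 libraries, whereas *Cpr72Ec* ranged between 36.1 and 342 CPM per kb and *Cpr100A* between 19.9 and 137 CPM per kb. Reads of *Cpr65Au* can mix with those of an antisense RNA that overlaps it, since the counting is not stated to use strand.

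The summed level of the 40 genes differed little beside the changes of single members. It averaged 923 ± 52.2 CPM in *Cbp20/dlg1*, 867 ± 15.7 CPM in *Cbp20/Fsn*, 1041 ± 128 CPM in *Cbp20* and 1000 ± 26.7 CPM in Control KK (SD, n = 3 each). It averaged 1177 ± 33.7 CPM in *dlg1*, 1210 ± 163 CPM in *Fsn* and 1206 ± 17.7 CPM in Control GD (SD, n = 3 each). The 9 libraries of the GD groups had 1088 to 1394 CPM and the 12 others 854 to 1175 CPM. The differences were those of single members, shown by library in the map of all 40 genes.

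**Figure D1:**
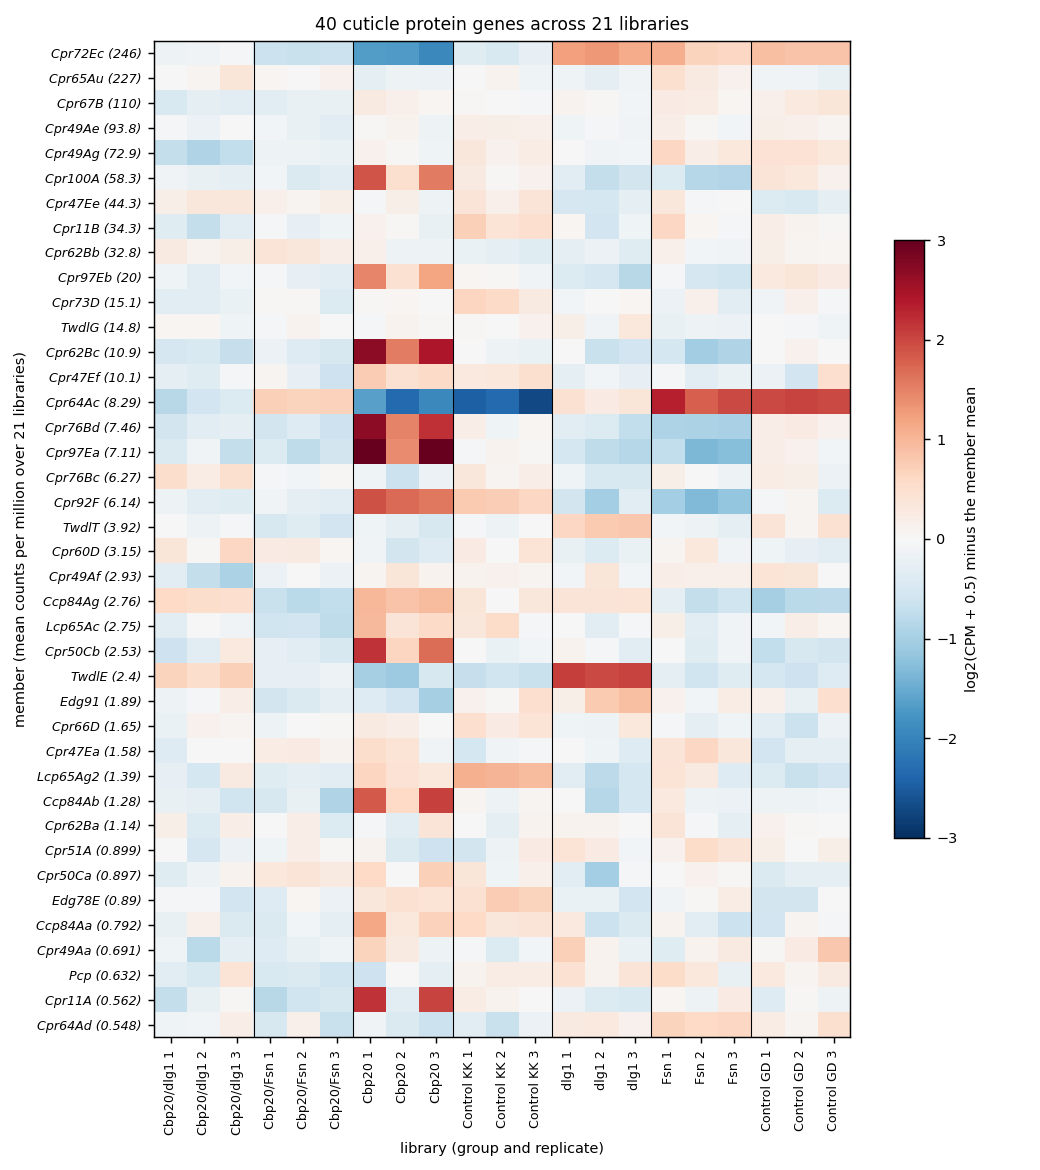
Each row is 1 of the 40 cuticle protein genes, with its mean CPM over 21 libraries beside the symbol, and each column is 1 library. Colour gives log2(CPM + 0.5) minus the mean of that gene, red above and blue below. The *Cbp20* columns hold the reddest block, paler in replicate 2, *Cpr64Ac* is dark blue in Control KK (0.272 to 0.501 CPM), and *TwdlE* is red in *dlg1* (8.29 to 8.85 CPM).

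The comparison of *Cbp20* knockdown with Control KK held the most members past both thresholds (log2 fold change beyond 1 and Benjamini-Hochberg adjusted p under 0.05 in the edgeR quasi-likelihood test over 10558 genes) of the 6 knockdown and control comparisons. In *Cbp20* heads 10 of the 40 members rose, which is 25% of them, where 1.18% of all genes tested rose, and 2 fell, where 2.06% of all genes fell. The median log2 fold change was 0.10 over the members and 0.01 over all genes, so the median member changed little. Without *Cpr11A*, which reached the mean through these same libraries, 9 of 39 rose. Since these are bulk samples, more cells of a type and more RNA per cell cannot be told apart.

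*Cpr97Ea* rose most. It had 48.0, 11.1 and 39.1 CPM in the 3 *Cbp20* libraries, against 3.75, 4.19 and 3.93 CPM in Control KK. The groups did not overlap, and the second *Cbp20* library stood between the other *Cbp20* libraries and the controls. The log2 fold change was 3.04 ± 0.36 (SE, n = 3 each, edgeR quasi-likelihood test, adjusted p = 2.9e-06). Its neighbour *Cpr97Eb*, 1926 bp away on arm 3R (*Cpr97Ea* at chr3R:27083130-27087778 and *Cpr97Eb* at chr3R:27089704-27091130, BDGP6.54), had 51.7, 25.3 and 42.5 CPM in *Cbp20*, against 19.1, 18.9 and 17.1 CPM in Control KK. It rose by 1.11 ± 0.19 on the log2 scale (SE, n = 3 each, edgeR, adjusted p = 0.00019).

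*Cpr62Bc* had 52.5, 23.6 and 44.0 CPM in *Cbp20*, against 7.84, 6.93 and 6.69 CPM in Control KK. All 3 *Cbp20* libraries lay above the controls, with a log2 fold change of 2.48 ± 0.22 (SE, n = 3 each, edgeR, adjusted p = 1.6e-07). The adjacent genes of the same cluster on 3L did not pass: *Cpr62Bb*, 5117 bp away, changed by 0.24 ± 0.09 and *Cpr62Ba* by 0.11 ± 0.31 on the log2 scale (SE). The rise was therefore not shared by all genes of a cluster.

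*Cpr76Bd* gave the same picture. It had 37.1, 16 and 26.3 CPM in *Cbp20*, against 6.30, 4.88 and 5.6 CPM in Control KK, and rose by 2.24 ± 0.21 on the log2 scale (SE, n = 3 each, edgeR, adjusted p = 1.8e-07). *Cpr76Bc*, 5471 bp away, had 5.6, 3.77 and 5.39 CPM in *Cbp20* and 7.94, 6.47 and 7.12 CPM in Control KK, and did not pass the fold threshold (-0.55 ± 0.16 on the log2 scale). *Ccp84Ab*, of the 84A cluster on 3R, had 4.94, 1.78 and 5.73 CPM in *Cbp20*, against 1.11, 0.866 and 1.09 CPM in Control KK. It rose by 2.0 ± 0.38 on the log2 scale (SE, n = 3 each, edgeR, adjusted p = 0.00061). *Ccp84Aa*, 1207 bp away, had 2.23, 1.03 and 1.47 CPM in *Cbp20* against 1.35, 1.05 and 1.09 CPM in Control KK, and the groups overlapped.

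Of the other genes that rose in *Cbp20* heads, *Cpr50Cb* and *Cpr11A* were named after their values were seen. *Cpr50Cb* had 11.1, 3.53 and 7.79 CPM in *Cbp20* and 2.07, 1.73 and 1.95 CPM in Control KK (log2 fold change 1.95 ± 0.32). *Cpr100A*, one of the most abundant members, had 189, 71.2 and 152 CPM in *Cbp20* and 61.2, 52.1 and 56.1 CPM in Control KK (1.28 ± 0.23). *Cpr92F* had 19.6, 17 and 15.5 CPM in *Cbp20* and 8.66, 8.43 and 7.70 CPM in Control KK (1.07 ± 0.15), the one gene of the block whose second library was not its lowest. *Cpr11A* had 3.46, 0.206 and 3.09 CPM in *Cbp20* and 0.529, 0.456 and 0.389 CPM in Control KK, so that replicate 2 lay under the controls and the groups overlapped (2.26 ± 0.66, edgeR adjusted p = 0.019). *Cpr64Ac* was just past the thresholds (1.02 ± 0.33) from 26, 15 and 17 counts in *Cbp20*, against 9, 11 and 7 counts in Control KK, and its call was lost without *Cbp20* replicate 1 or 3 or Control KK replicate 1 or 3.

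Replicate 2 held the lowest of the 3 *Cbp20* values for 9 of the 10 genes that rose, whereas it was lowest for 10 of the other 30 members and for 36.3% of all 10558 genes tested. Its level was 6.29% to 97% of the mean of replicates 1 and 3 for those 10 genes, and it was above every Control KK library for 9 of them. The gap was the same in each sequencing run of the libraries: *Cpr97Ea* had 14, 11 and 11.5 unscaled CPM in the 3 runs of replicate 2, 49.1 and 49.5 in the 2 runs of replicate 1, and 38.5, 38.3 and 47.2 in the 3 runs of replicate 3. Without replicate 2 the count of members past both thresholds stayed at 12, and all 12 were shared. The log2 fold change was then 3.46 for *Cpr97Ea*, 2.83 for *Cpr11A*, 2.76 for *Cpr62Bc*, 2.50 for *Cpr76Bd*, 2.38 for *Ccp84Ab*, 2.30 for *Cpr50Cb*, 1.59 for *Cpr100A*, 1.36 for *Cpr97Eb*, 1.31 for *Cpr64Ac* and 1.09 for *Cpr92F*. Without replicate 1 it was 7, since *Cpr11A*, *Cpr100A*, *Cpr97Eb*, *Cpr92F* and *Cpr64Ac* no longer passed, and *Cpr11A* also no longer passed without replicate 3 or without any 1 of the Control KK libraries. The only genes below the mean of 0.5 CPM that exceeded 1 CPM in some library, *Cpr64Aa* and *Cpr56F*, had the same split between libraries. *Cpr64Aa* had 3.85, 0.309 and 2.20 CPM and *Cpr56F* 1.84, 0.0686 and 1.86 CPM in *Cbp20*, against 0.0962 to 0.156 CPM and 0.0481 to 0.182 CPM in Control KK. Neither passed the filter on low counts.

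**Figure D2:**
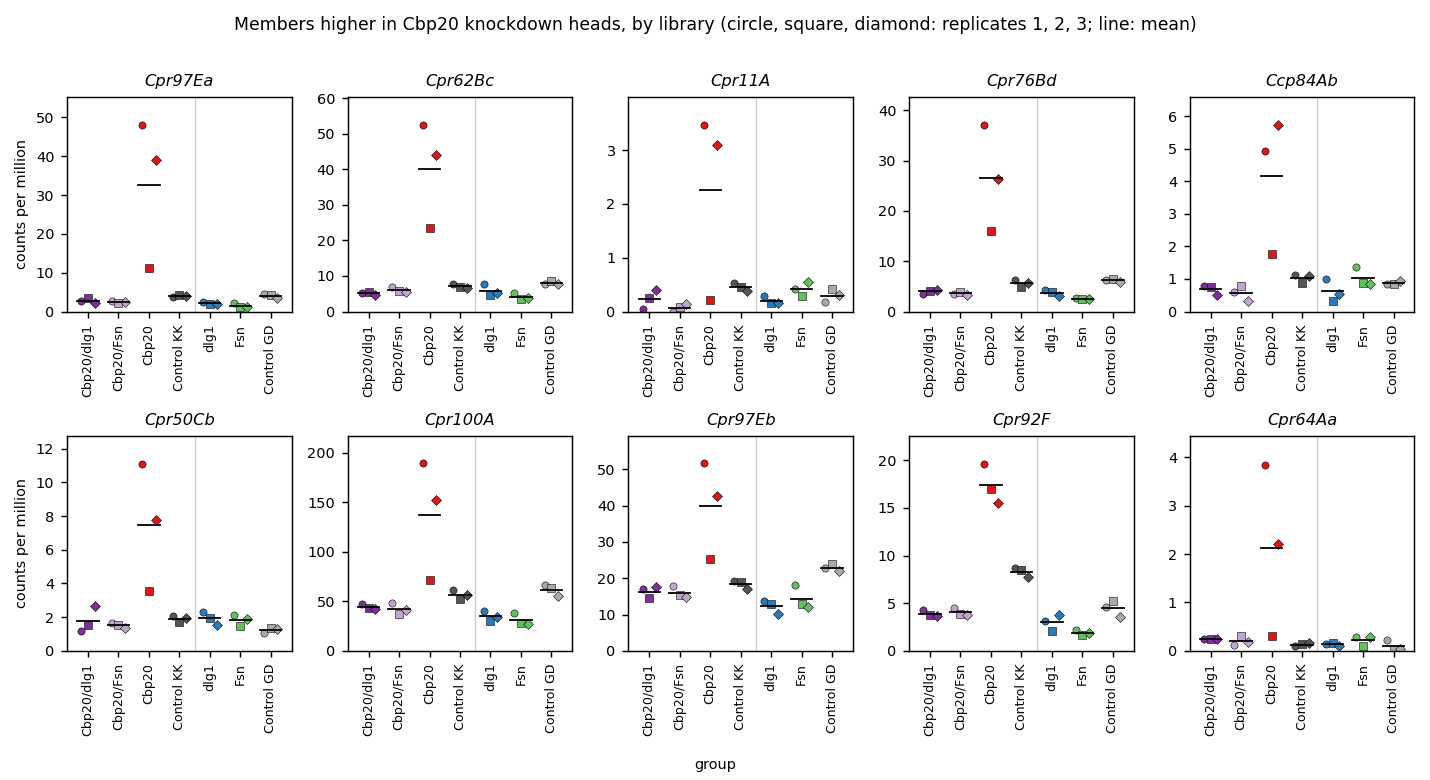
CPM (linear axes) in each library of the 7 groups for 9 of the genes that rose in *Cbp20* heads and for *Cpr64Aa*, which averaged less than 0.5 CPM. Circle, square and diamond are replicates 1, 2 and 3 and lines are group means. The *Cbp20* libraries are above all 18 others, except replicate 2 of *Cpr11A* (0.206 CPM) and of *Cpr64Aa* (0.309 CPM), and the square lies under the circle in every panel.

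*Cpr72Ec*, the corneal lens protein, went the other way. It had 62.8, 61.6 and 52.3 CPM in *Cbp20*, against 156, 146 and 170 CPM in Control KK, and replicate 2 did not stand apart. The log2 fold change was -1.42 ± 0.10 (SE, n = 3 each, edgeR, adjusted p = 1.1e-08). The other lens protein, *Cpr66D*, had 2.06, 1.95 and 1.62 CPM in *Cbp20* and 2.5, 2.01 and 2.30 CPM in Control KK, and the groups overlapped. *Edg91*, an ecdysone-dependent gene named after its values were seen, had 1.23, 1.03 and 0.637 CPM in *Cbp20* and 1.97, 1.82 and 2.72 CPM in Control KK (-1.16 ± 0.29). Its call was lost without replicate 3 of either group.

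The block of genes was not high in flies with a second hairpin. The second lines are those of the GD groups, so a second hairpin and GD background cannot be told apart here. Of the 8 genes that rose in *Cbp20* heads, *Cpr64Ac* and *Cpr11A* aside, all were lower in *Cbp20/dlg1* than in *Cbp20* and all were lower in *Cbp20/Fsn* than in *Cbp20*, with log2 fold changes between -3.54 and -1.28 for the *dlg1* pair and between -3.73 and -1.30 for the *Fsn* pair. These comparisons were added after the data were seen, and both use the *Cbp20* libraries in which the genes were high against Control KK, so the direction is partly fixed by that choice. Over the 40 members, 10 fell and 3 rose in *Cbp20/dlg1* against *Cbp20*, where 1.51% of all genes tested fell and 2.84% rose. In *Cbp20/Fsn* against *Cbp20*, 13 fell and 2 rose, where 1.36% of all genes fell and 2.85% rose. Without *Cpr11A*, which reached the mean through the *Cbp20* libraries, 9 of 39 fell in the first comparison and 12 of 39 in the second. The median log2 fold change of the members was -0.48 and -0.24 in these comparisons, against 0.01 and 0.03 for all genes. Without *Cbp20* replicate 2, 12 fell and 3 rose in *Cbp20/dlg1*, and 13 fell and 2 rose in *Cbp20/Fsn*. The shares of all genes in that fit are not given here. *Cpr97Ea* had 2.73, 3.51 and 2.15 CPM in *Cbp20/dlg1* and 2.79, 2.08 and 2.48 CPM in *Cbp20/Fsn*, against 48.0, 11.1 and 39.1 CPM in *Cbp20*. The change was -3.54 ± 0.37 for the *dlg1* pair and -3.73 ± 0.37 for the *Fsn* pair (SE, n = 3 each, edgeR, adjusted p = 8.1e-07 and 7.8e-07), and without *Cbp20* replicate 2 it was -3.96 and -4.14. *Cpr11A*, for which no fold is given, had 0, 2 and 3 counts in *Cbp20/Fsn*, and 79, 6 and 63 counts in *Cbp20*.

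Set against Control KK, each pair had 7 members past both thresholds, mostly lower ones. In *Cbp20/dlg1*, 2 members rose and 5 fell (5% and 12.5% of the members), where 1.3% of all genes tested rose and 0.729% fell. In *Cbp20/Fsn*, 1 member rose and 6 fell (2.5% and 15% of the members), where 2.12% of all genes rose and 0.881% fell. The median log2 fold change was -0.35 in both, against 0.00 for all genes. The pairs share the control libraries with each other and with *Cbp20*. Their second lines are those of the GD groups, so hairpins and background cannot be told apart here either.

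*Lcp65Ag2*, a larval cuticle protein gene by its name, had 0.966, 0.713 and 1.60 CPM in *Cbp20/dlg1* and 0.855, 0.928 and 0.903 CPM in *Cbp20/Fsn*, against 3.13, 3.05 and 2.84 CPM in Control KK. No library of either pair reached the controls, and the log2 fold changes were -1.46 ± 0.27 and -1.74 ± 0.28 (SE, n = 3 each, edgeR, adjusted p = 0.001 and 0.00023). Its neighbours *Lcp65Ag1* and *Lcp65Ag3* are close copies, so its reads may not all be counted for it. *Edg78E*, a pupal cuticle protein gene, had 0.798, 0.814 and 0.401 CPM in *Cbp20/dlg1* and 0.520, 0.883 and 0.677 CPM in *Cbp20/Fsn*, against 1.35, 1.78 and 1.63 CPM in Control KK. It fell by 1.23 ± 0.30 in *Cbp20/dlg1* and by 1.20 ± 0.30 in *Cbp20/Fsn* on the log2 scale (SE, n = 3 each, edgeR, adjusted p = 0.010 and 0.009), from 8 to 20 counts per library in the pairs and 28 to 42 counts in Control KK. The call was lost without *Cbp20/dlg1* replicate 3 or *Cbp20/Fsn* replicate 1. Set against Control GD instead, neither gene was lower in the pairs (*Lcp65Ag2* 0.66 and 0.37, *Edg78E* 0.29 and 0.32 on the log2 scale).

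*Pcp*, the other pupal cuticle protein gene, lies within *Gart* on the opposite strand. It had 0.297, 0.309 and 0.226 CPM in *Cbp20/Fsn*, against 0.674, 0.775 and 0.778 CPM in Control KK, that is 8, 7 and 5 counts against 14, 17 and 20. The log2 fold change was -1.40 ± 0.43 (edgeR, adjusted p = 0.031), and the call was lost when any 1 of the 6 libraries was left out. *Gart* changed by -0.38 on the log2 scale in the same comparison. *Ccp84Ag* had 1.37, 1.19 and 1.26 CPM in *Cbp20/Fsn*, against 3.32, 2.46 and 3.23 CPM in Control KK (log2 fold change -1.23 ± 0.16, SE, n = 3 each, edgeR, adjusted p = 2.9e-05), while set against Control GD its change was 0.18 (adjusted p = 0.58). In *Cbp20/dlg1* it had 3.95, 3.77 and 3.70 CPM, none below Control KK. The remaining genes that fell were *Cpr92F* in both pairs (-1.08 ± 0.16 in *Cbp20/dlg1* and -1.02 ± 0.16 in *Cbp20/Fsn*), *Cpr11B* (-1.02 ± 0.17) and *Cpr49Ag* (-1.02 ± 0.09) in *Cbp20/dlg1*, and *Lcp65Ac* (-1.14 ± 0.22), named after its values were seen, in *Cbp20/Fsn*. *Cpr49Ag*, among the most abundant per kilobase, had 42.6, 37.6 and 42.4 CPM in *Cbp20/dlg1*, 63.9, 62.9 and 61.6 CPM in *Cbp20/Fsn*, and 89.8, 76.6 and 81.8 CPM in Control KK. Without *Cbp20/dlg1* replicate 2 or Control KK replicate 1 the changes of *Cpr11B* and *Cpr49Ag* were under the fold threshold, as was that of *Cpr92F* in *Cbp20/Fsn* without *Cbp20/Fsn* replicate 2 or 3 or Control KK replicate 1, and that of *Lcp65Ac* without Control KK replicate 2 (-0.98). Set against Control GD instead, *Cpr92F* changed by -0.19 and -0.13 in the *dlg1* and *Fsn* pairs (adjusted p = 0.43 and 0.60), *Cpr11B* by -0.59 and *Lcp65Ac* by -0.88, all under the fold threshold, while *Cpr49Ag* still passed (-1.19).

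**Figure D3:**
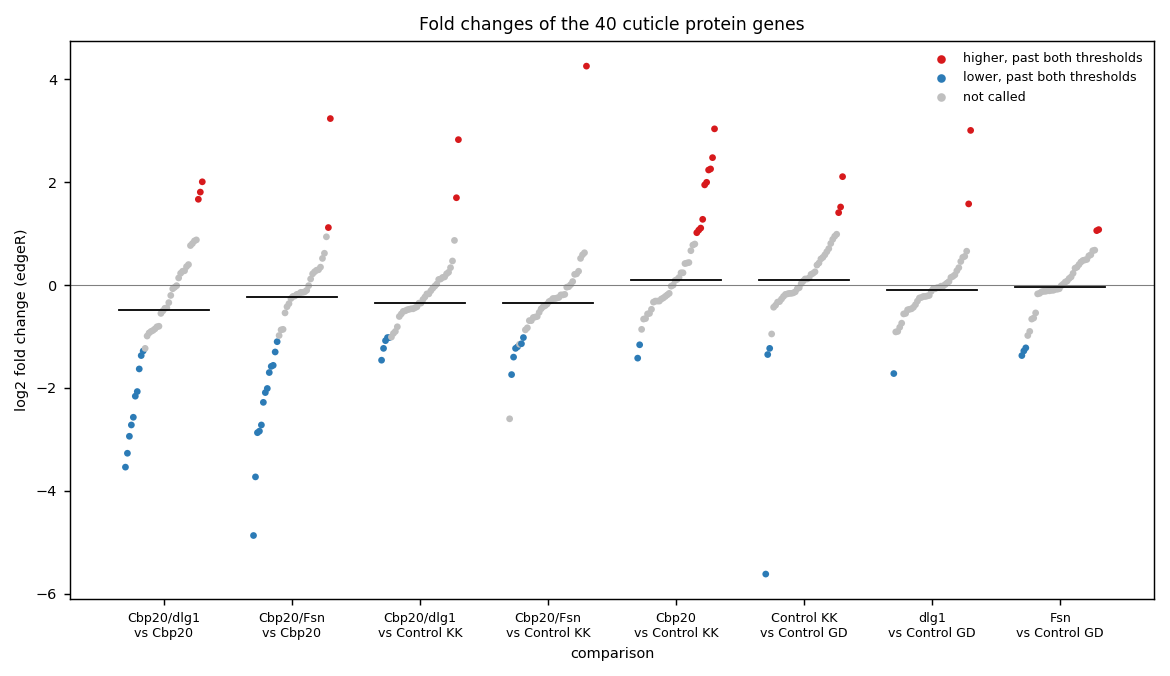
Log2 fold change (edgeR) of each of the 40 genes in 8 comparisons, the first-named group over the second. Red and blue points are past both thresholds, grey points are not, and black lines are medians. *Cbp20* against Control KK has 10 red points, and the pairs against *Cbp20* have 10 and 13 blue points, *Cpr11A* included. These comparisons share the *Cbp20* libraries, so the direction is partly fixed. The genes are not all the same: *Cpr64Ac* is red in each of these comparisons, and *Ccp84Aa* is blue in the pairs but grey in *Cbp20* against Control KK. The lowest point of Control KK against Control GD is *Cpr64Ac* (-5.62).

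Between the controls, which carry neither hairpin, 3 members were higher and 3 lower in Control KK than in Control GD, where 1.64% of all genes tested were higher and 1.72% lower. *Cpr64Ac* differed most. It had 0.433, 0.501 and 0.272 CPM in Control KK (9, 11 and 7 counts), against 19.4, 20.3 and 19.5 CPM in Control GD. The log2 fold change was -5.62 ± 0.22 (SE, n = 3 each, edgeR, adjusted p = 1.9e-12). The *Cbp20* libraries were also low, with 1.14, 0.514 and 0.833 CPM, and the pairs were between the controls, with 2.35, 2.90 and 3.35 CPM in *Cbp20/dlg1* and 7.88, 7.51 and 7.67 CPM in *Cbp20/Fsn*. The *dlg1* libraries, at 6.42, 5.49 and 5.98 CPM, were below Control GD (-1.72 ± 0.15, edgeR, adjusted p = 1.8e-07), and the *Fsn* libraries, at 25.0, 17.1 and 19.5 CPM, were not (0.06 ± 0.14). Against Control KK the pairs rose, by 2.83 ± 0.27 for *Cbp20/dlg1* and 4.26 ± 0.24 for *Cbp20/Fsn* on the log2 scale (SE, n = 3 each, edgeR, adjusted p = 7.4e-07 and 3.6e-10), and against Control GD they were lower (-2.79 and -1.36), as was *Cbp20* (-4.60), while *dlg1* against Control KK was higher (3.90). The direction of this gene thus depends on which control is used. *CG43367*, a gene that spans it on the other strand, changed by between -0.11 and 0.15 on the log2 scale in the comparisons with a control in which *Cpr64Ac* passed. The nearby *Cpr64Ad* had 0.289, 0.137 and 0.389 CPM in Control KK and 0.676, 0.559 and 0.897 CPM in Control GD (-1.35 ± 0.44), and its call was lost without Control KK replicate 1 or 2 or Control GD replicate 1 or 3. *CG43367*, with a mean of 153 CPM, overlaps *Cpr64Ad* on the same strand, and changed by -0.04 on the log2 scale between the controls.

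*Cpr72Ec* also differed between the controls, with 156, 146 and 170 CPM in Control KK against 377, 364 and 367 CPM in Control GD. Its change was -1.23 ± 0.10 on the log2 scale (SE, n = 3 each, edgeR, adjusted p = 3.1e-08). The 7 groups formed steps. *Cbp20* had 52.3 to 62.8 CPM, *Cbp20/Fsn* 127 to 129 CPM, Control KK 146 to 170 CPM, *Cbp20/dlg1* 180 to 193 CPM, *Fsn* 309 to 426 CPM, Control GD 364 to 377 CPM and *dlg1* 434 to 495 CPM, and only *Fsn* and Control GD overlapped. The other 3 genes were higher in Control KK. *Lcp65Ag2* had 3.13, 3.05 and 2.84 CPM in Control KK and 0.811, 0.596 and 0.673 CPM in Control GD (2.11 ± 0.28). *Edg78E* had 1.35, 1.78 and 1.63 CPM in Control KK and 0.406, 0.410 and 0.823 CPM in Control GD (1.52 ± 0.30). *Ccp84Ag* had 3.32, 2.46 and 3.23 CPM in Control KK and 0.992, 1.19 and 1.20 CPM in Control GD (1.41 ± 0.16). Their adjusted p-values were 2e-05, 0.001 and 3.4e-06 (edgeR). *Pcp*, the other marker of pupal cuticle, had 0.674, 0.775 and 0.778 CPM in Control KK and 0.856, 0.671 and 0.823 CPM in Control GD, with overlap.

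In *dlg1* heads 2 members rose and 1 fell, where 1.29% of all genes tested rose and 0.672% fell, and the median log2 fold change was -0.10, against 0.01 for all genes. *TwdlE*, a Tweedle gene on 2L, had 8.85, 8.29 and 8.48 CPM in *dlg1*, against 1.04, 0.932 and 1.20 CPM in Control GD. The values within each group were close to each other, and the log2 fold change was 3.01 ± 0.18 (SE, n = 3 each, edgeR, adjusted p = 1.7e-09). The same gene had 3.02, 2.70 and 3.15 CPM in *Cbp20/dlg1*, the other group with the *dlg1* hairpin, against 0.866, 0.957 and 0.895 CPM in Control KK (1.70 ± 0.19, SE, n = 3 each, edgeR, adjusted p = 7.5e-06). In the groups without that hairpin no library exceeded 1.49 CPM. *lectin-28C*, which overlaps *TwdlE* on the opposite strand, changed by -0.46 in *dlg1* and by -0.01 in *Cbp20/dlg1* on the log2 scale. *Ccp84Ag* had 3.38, 3.36 and 3.44 CPM in *dlg1* against 0.992, 1.19 and 1.20 CPM in Control GD (1.58 ± 0.16, edgeR, adjusted p = 1.3e-06), while set against Control KK its change was 0.18 (adjusted p = 0.45). The gene that fell was *Cpr64Ac*. Of 4 glia markers, *alrm* was lower in the same heads, with 32.2, 27.5 and 24.9 CPM in *dlg1* against 66.1, 64.3 and 62.0 CPM in Control GD (-1.19, edgeR, adjusted p = 5.8e-08), and the summed level of the 4 was 465 to 483 CPM in *dlg1* and 617 to 644 CPM in Control GD. Its part in the cuticle results was not tested. The other Tweedle genes *TwdlT* and *TwdlG* passed in none of the 6 comparisons.

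**Figure D4:**
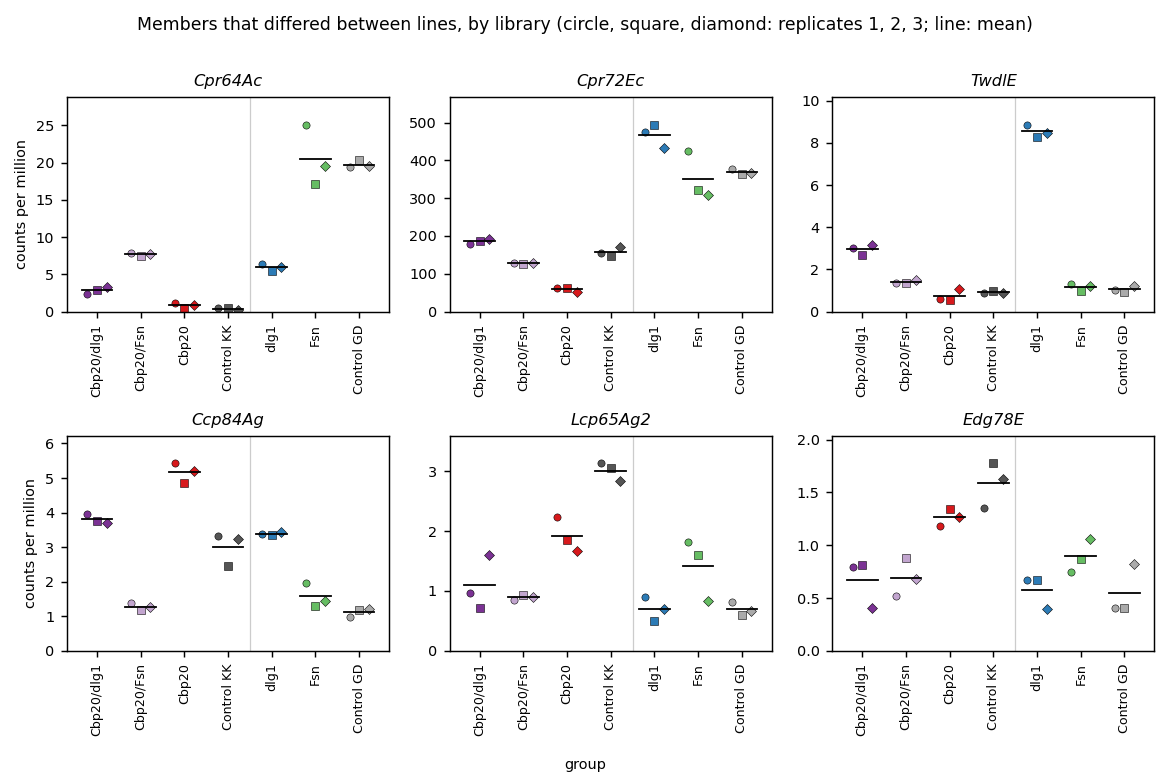
CPM (linear axes) in each library of the 7 groups for 6 genes that differed between lines. Circle, square and diamond are replicates 1, 2 and 3 and lines are group means. *TwdlE* is high in *dlg1* (8.29 to 8.85 CPM) and next in *Cbp20/dlg1* (2.70 to 3.15 CPM), and *Cpr64Ac* is high in *Fsn* and Control GD (17.1 to 25.0 CPM) and under 1.2 CPM in *Cbp20* and Control KK.

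In *Fsn* heads 2 members rose and 3 fell, where 1.09% of all genes tested rose and 1.32% fell, with a median log2 fold change of -0.04, against 0.03 for all genes. The 3 that fell were all among the 10 that rose in *Cbp20* heads, a comparison with other control libraries. The overlap itself was not tested. Without *Cpr64Ad*, which reached the mean through the *Fsn* libraries, 2 of 39 rose and 3 fell. *Cpr76Bd* had 2.60, 2.57 and 2.5 CPM in *Fsn*, against 6.22, 6.52 and 5.95 CPM in Control GD (-1.28 ± 0.24, edgeR, adjusted p = 0.00066). *Cpr92F* had 2.14, 1.65 and 1.89 CPM in *Fsn*, against 4.64, 5.18 and 3.55 CPM in Control GD (-1.22 ± 0.18, adjusted p = 9.9e-05, edgeR). *Cpr97Ea* had 2.11, 1.21 and 1.28 CPM in *Fsn*, against 4.51, 4.21 and 3.59 CPM in Control GD (-1.37 ± 0.43, adjusted p = 0.020, edgeR), and missed the threshold without *Fsn* replicate 2 or 3 or Control GD replicate 1 (adjusted p = 0.053 to 0.056). *Cpr100A*, of the same block, had 38.0, 28.1 and 27.4 CPM in *Fsn* and 66.4, 63.8 and 55.3 CPM in Control GD, a change of -0.98 ± 0.23 that was just under the fold threshold. The 2 that rose were *Cpr47Ea*, with 2.14, 2.62 and 2.06 CPM in *Fsn* against 0.856, 1.19 and 1.16 CPM in Control GD (1.08 ± 0.24, edgeR, adjusted p = 0.003), and *Lcp65Ag2*, with 1.82, 1.60 and 0.835 CPM in *Fsn* against 0.811, 0.596 and 0.673 CPM in Control GD (1.06 ± 0.30, edgeR, adjusted p = 0.010). Without *Fsn* replicate 2 neither passed, so that 2 of the 5 calls were left, and without Control GD replicate 1 there were 3. *Lcp65Ag2* also missed the thresholds without *Fsn* replicate 1 or Control GD replicate 2, and was lower, not higher, against Control KK (-1.06).

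Neuron markers moved with the same comparison. The summed level of 5 of them was 2641 to 3846 CPM in *Fsn* and 4271 to 4583 CPM in Control GD, with a median log2 fold change of -0.58. Past both thresholds, 1 of the 5 was lower, where 1.32% of all genes tested were. This was *Syx1A*, with 10.6, 54.0 and 34.8 CPM in *Fsn* against 86.9, 84.6 and 70.9 CPM in Control GD (-1.30, edgeR, adjusted p = 0.010). *Fsn* replicate 1 had the lowest summed level of all 21 libraries. Without it 1 member rose and 5 fell, but the share of all genes called in that fit is not given here. The part of these markers in the cuticle results was not tested.

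Whether adding a hairpin to *Cbp20* knockdown did the same as that hairpin alone was asked of each gene with an interaction, also added after the data were seen: the change from *Cbp20* to the pair minus the change from Control GD to the single knockdown. For *dlg1*, 7 members had a lower and 3 a higher change with *Cbp20* knockdown, where 1.29% and 3.13% of all genes did. For *Fsn*, 11 had a lower and 2 a higher change, where 0.938% and 1.66% of all genes did. Without the members that reached the mean through a group of the test (*Cpr11A*, and *Cpr64Ad* for *Fsn*), 7 of 39 were lower for *dlg1* and 10 of 38 for *Fsn*. Of the 8 genes that rose with *Cbp20* knockdown, *Cpr64Ac* and *Cpr11A* aside, 6 were among those with a lower change for *dlg1* and 5 for *Fsn*. Control KK does not enter this test, but the *Cbp20* libraries do. A lower change of these 8 genes is thus partly fixed by their choice. The strain background also differs between the groups with and without the *Cbp20* hairpin, and cannot be told apart from that hairpin here. Without *Cbp20* replicate 2 the counts were 10 lower and 3 higher for *dlg1*, and 10 lower and 2 higher for *Fsn*. The shares of all genes in that fit are not given here.

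Genes that act with cuticle proteins were followed in lists that hold no member. In the list of other structural and epidermal cuticle genes, 5 of 11 tested passed in *Cbp20* heads against Control KK, all higher. Of all genes tested, 1.18% were higher. The median log2 fold change of the list was 0.95, against 0.01 for all genes. Without *Cbp20* replicate 2, 7 passed, with a median of 1.33. Without replicate 1 or 3, 4 passed, with medians of 0.74 and 0.98, and *Vajk1* no longer did. *Acp65Aa*, an adult cuticle protein gene, had 3.76, 3.74 and 2.74 CPM in *Cbp20*, against 0.770, 1.23 and 0.739 CPM in Control KK (1.90 ± 0.29). *Vajk3* had 149, 74.6 and 125 CPM in *Cbp20*, against 35.2, 31.7 and 31.7 CPM in Control KK (1.82 ± 0.19), and *dusky* (*dy*), which encodes a membrane protein of epidermal cells, had 5.6, 5.73 and 7.59 CPM against 2.17, 2.55 and 2.61 CPM (1.36 ± 0.24). Their adjusted p-values were 5.8e-05, 5.4e-07 and 0.00026 (edgeR, n = 3 each), and without *Cbp20* replicate 2 their changes were 1.83, 2.06 and 1.43. *Acp1*, another adult cuticle protein gene, and *Vajk3* fell in *Fsn* against Control GD (-1.30 ± 0.21 and -1.20 ± 0.19), whereas *dy* rose there (1.20 ± 0.28, edgeR, adjusted p = 0.004). *dy* was also higher in Control KK than in Control GD (1.53 ± 0.27).

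Of 28 genes of chitin synthesis, assembly and turnover, 2 were higher and 1 lower in *Cbp20* heads, with a median of 0.14. Of all genes tested, 1.18% were higher and 2.06% lower. Without *Cbp20* replicate 2, 4 of the 28 were higher and 1 lower. Without replicate 1 or 3, 2 were higher and 1 lower. The chitin synthase gene *kkv* had 47.7, 14 and 34.5 CPM in *Cbp20*, against 10.7, 8.71 and 8.52 CPM in Control KK (1.78 ± 0.27, edgeR, adjusted p = 6.6e-05), and fell in *Fsn* against Control GD (-1.14 ± 0.31), together with the chitinase gene *Cht7* (-1.10 ± 0.23). The chitinase gene *Cht5*, named after its values were seen, had 80.6, 3.22 and 66.5 CPM in *Cbp20*, against 4.19, 3.33 and 3.42 CPM in Control KK. Its second *Cbp20* library was at the control level in all 3 sequencing runs (2.51, 4.15 and 3.16 unscaled CPM), and the groups overlapped (3.77 ± 0.64). Without that library the changes were 2.15 for *kkv* and 4.34 for *Cht5*, and without replicate 1 they were 1.37 and 3.25. *Idgf5*, of the chitinase-like growth factors, was lower, with 13.3, 13.1 and 14.7 CPM in *Cbp20* and 33.9, 34.0 and 40.7 CPM in Control KK (-1.41 ± 0.12). The chitin deacetylase gene *serp* had 28.8, 30.8 and 28.4 CPM in *Cbp20/dlg1*, 31.9, 27.3 and 27.4 CPM in *Cbp20/Fsn*, 112, 54.0 and 93.5 CPM in *Cbp20* and 63.5, 54.1 and 57.7 CPM in Control KK, and fell in *Cbp20/Fsn* against Control KK. Of the 28 chitin genes, 5 were lower and 2 higher in *Cbp20/dlg1* than in *Cbp20*, where 1.51% of all genes were lower and 2.84% higher. In *Cbp20/Fsn*, 8 were lower and 2 higher than in *Cbp20*, where 1.36% were lower and 2.85% higher. *kkv*, *Cht5* and *serp* were among the lower genes of both pairs. Both comparisons use the *Cbp20* libraries, where *kkv* and *Cht5* were high and *Idgf5* low, so the direction of these genes is partly fixed. The higher genes were *Idgf5* (1.41 and 1.16) and *Chs2*, the second chitin synthase gene (1.71 and 1.58, from 0.316 to 0.851 CPM in the pairs and 0.0979 to 0.263 CPM in *Cbp20*). Without *Cbp20* replicate 2, 10 were lower in each pair, with 2 higher in *Cbp20/dlg1* and 1 in *Cbp20/Fsn*. Without *Cbp20* replicate 1, 4 were lower in *Cbp20/dlg1* and 6 in *Cbp20/Fsn*, with 2 higher in each. Without *Cbp20* replicate 3, 5 were lower in *Cbp20/dlg1* and 8 in *Cbp20/Fsn*, with 2 and 1 higher.

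Of the 19 tanning and pigment genes tested, 1 was higher and 1 lower in *Cbp20* heads, where 1.18% of all genes tested were higher and 2.06% lower. Their median was -0.07. *yellow-d2* had 9.14, 4.53 and 7.64 CPM in *Cbp20*, against 2.55, 3.19 and 2.76 CPM in Control KK (1.32 ± 0.26). Its change was 1.56 without *Cbp20* replicate 2 and 1.09 without replicate 1. *Henna* (*Hn*), the phenylalanine hydroxylase gene, had 206, 184 and 200 CPM in *Cbp20* against 416, 439 and 497 CPM in Control KK (-1.20 ± 0.10). The yellow gene itself had 1.09, 0.960 and 1.18 CPM in *Cbp20* and 1.15, 1.09 and 1.13 CPM in Control KK, with overlap. In *dlg1* heads *PPO2*, a prophenoloxidase gene, was lower (31.6, 42.4 and 30.6 CPM in *dlg1* and 85.4, 93.0 and 98.3 CPM in Control GD). Of 12 tested genes of ecdysone signalling, by which cuticle deposition is timed, 1 was higher in *Cbp20* heads, where 1.18% of all genes tested were. This was *Hr4*, named after its values were seen, with 4.81, 1.44 and 3.43 CPM in *Cbp20*. It had 0.770, 1.05 and 1.63 CPM in Control KK, with overlap. Its change was 1.82 without *Cbp20* replicate 2 and 1.04 without replicate 1. Of 6 eclosion hormone genes tested, *Eh* alone passed, with 1.62, 0.171 and 1.08 CPM in *Cbp20* and 2.98, 4.42 and 4.40 CPM in Control KK, while Control GD had 0.135 to 0.335 CPM. The call of *Eh* was lost without *Cbp20* replicate 2 (-1.54, adjusted p = 0.11, edgeR) or replicate 3 (-2.19, adjusted p = 0.070, edgeR).

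**Figure D5:**
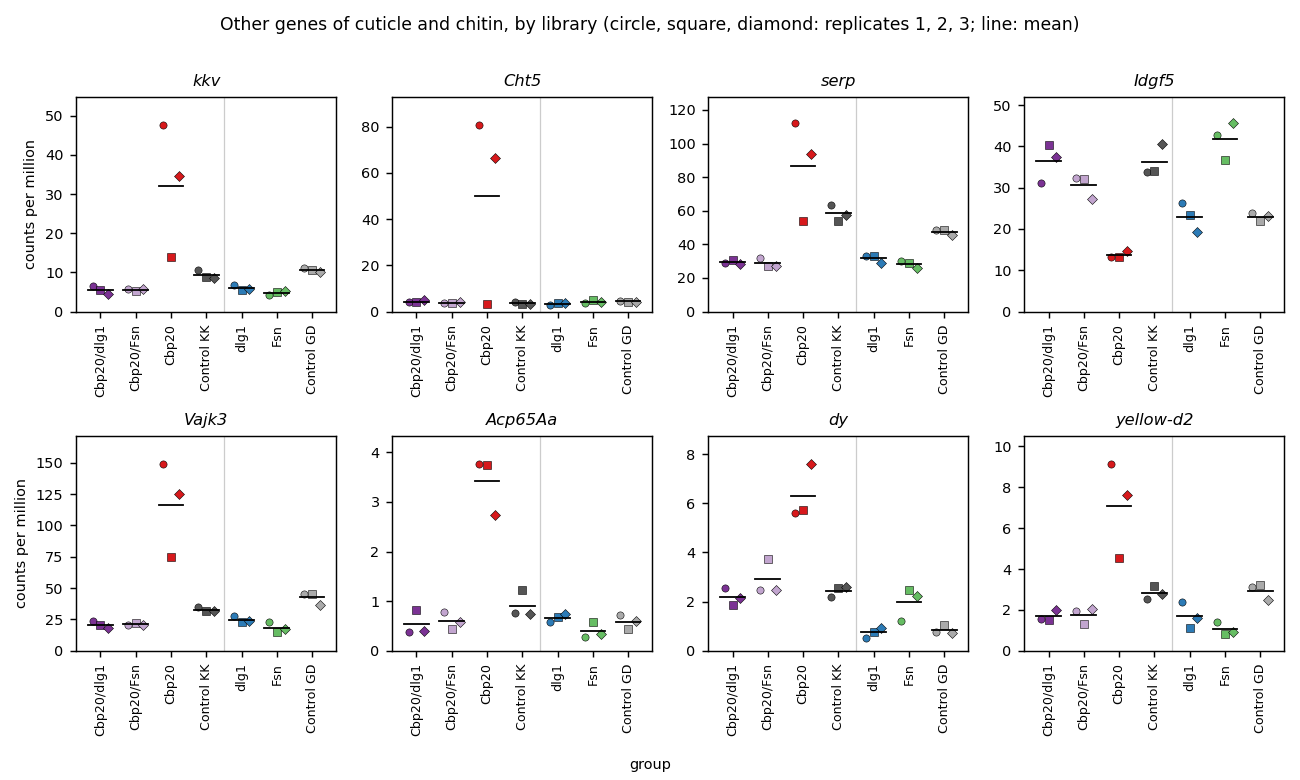
CPM (linear axes) in each library of the 7 groups for 8 genes of chitin, other cuticle proteins and tanning. Circle, square and diamond are replicates 1, 2 and 3 and lines are group means. The squares of *kkv* (14 CPM) and *Cht5* (3.22 CPM) lie far under the other *Cbp20* points, whereas those of *Acp65Aa* and *dy* do not.

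Markers of the antenna moved with several of these comparisons. In *Cbp20* heads 8 of 12 tested antennal genes were higher than in Control KK, where 1.18% of all genes tested were. *Os-C* had 17.4, 11.1 and 2.5 CPM in *Cbp20* and no count in Control KK. In both pairs 7 of 12 were higher than in Control KK, where 1.3% of all genes were in *Cbp20/dlg1* and 2.12% in *Cbp20/Fsn*. In Control KK 9 of 12 were lower than in Control GD, where 1.72% of all genes were. In *Fsn* 7 and in *dlg1* 4 of 12 were lower than in Control GD, where 1.32% and 0.672% of all genes were. The summed level of the antenna list, which 1 abundant gene, *Obp19d*, makes up for the most part, was 600 to 720 CPM in *Cbp20/dlg1*, 655 to 709 CPM in *Cbp20/Fsn*, 575 to 742 CPM in *Cbp20*, 591 to 651 CPM in Control KK, 665 to 691 CPM in *dlg1*, 828 to 998 CPM in *Fsn* and 819 to 869 CPM in Control GD. The part of antennal RNA in the cuticle results was not tested.

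Markers of midgut and flight muscle also differed between the groups. The summed level of 10 midgut genes was lowest in *Cbp20* heads, with 24.7 to 88.2 CPM in *Cbp20/dlg1*, 19.4 to 25.7 CPM in *Cbp20/Fsn*, 10.9 to 12.7 CPM in *Cbp20* and 27.4 to 31.3 CPM in Control KK. Of the 3 midgut genes tested, *Amy-d*, an amylase gene, was lower in *Cbp20* than in Control KK (-2.22, edgeR, adjusted p = 9.5e-06), where 2.06% of all genes tested were lower. The 6 flight muscle genes summed to 491 to 577 CPM in *Cbp20/dlg1*, 785 to 844 CPM in *Cbp20/Fsn*, 602 to 758 CPM in *Cbp20* and 459 to 534 CPM in Control KK. They were thus higher in all libraries of *Cbp20* and *Cbp20/Fsn* than in those of Control KK. The actin genes *Act79B* (1.54, edgeR, adjusted p = 0.00021) and *Act88F* (1.29, edgeR, adjusted p = 1.1e-05) passed in *Cbp20/Fsn*, of 4 genes of that list tested, and none did in *Cbp20*. Of all genes tested, 2.12% were higher in *Cbp20/Fsn* and 1.18% in *Cbp20*, each against Control KK. Markers of eggshell and germline were highest in single libraries of *dlg1* (67.2 CPM, eggshell) and *Cbp20/Fsn* (61.8 CPM, germline). The part of these tissues in the cuticle results was not tested.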

How the data were processed

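Heads of 7 genotypes were sequenced in 3 libraries each. Per the labels and methods, the authors trimmed reads with Trimmomatic 0.36, aligned them with TopHat2 2.1.1, and counted them per gene with HTSeq 0.6.1. The strand setting is not given in the sources used here, so genes that overlap cannot be fully told apart. The deposited values are raw counts per gene with 1 column for each sequencing run. The columns of a library (3 for 17 libraries, 2 for 4) were summed, the column names of the *Cbp20/Fsn* libraries give another line number than the labels, which were followed, and the row of reads in no gene (10.4% to 14.9%) was kept out. Symbols were found for 17253 of 17559 gene IDs. Counts were scaled by TMM, genes passing filterByExpr (10558) were fitted over all 21 libraries with edgeR 4.0.16 in R 4.3.3 (quasi-likelihood test, 1 coefficient per group, no block), and p-values were adjusted by Benjamini-Hochberg over all genes. The call needed adjusted p under 0.05 and a log2 fold change beyond 1, the thresholds of the study. The script was tested on simulated data. Exon lengths and positions are from the Ensembl annotation of BDGP6.54, and counting error alone sets the floor of 3 counts. The members and gene lists were chosen with earlier results of these data known. Named members were the markers *Edg78E* and *Pcp*, the 8 highest means, the up to 4 largest changes past both thresholds without overlap in each comparison, any member with most of its level in 1 library, and those at the threshold. Up to 3 genes were named per other list. Others were named after their values were seen. Alternatives were RLE scaling, DESeq2 1.42.0, the estimation of edgeR 4, other count filters, fits of the compared groups only, a replicate block, no fold threshold, the first run only, the other strain's control, and leaving out each library. The comparisons of the pairs with *Cbp20* and the interactions were added after the data were seen. Of the genes listed, 7 were not analysed here.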

Additional observations from a re-analysis of the deposited data

Results flagged for a closer look

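For 8 named members in the *dlg1* flies and 10 in the *Fsn* flies, the change on adding the hairpin to *Cbp20* knockdown differed from the change that the hairpin gave alone, by the edgeR interaction test with Benjamini-Hochberg adjustment (n = 3 libraries in each of the 4 groups). Each value is the log2 change from *Cbp20* to the pair minus that from Control GD to the single knockdown. Between the libraries without and with the *Cbp20* hairpin the strain background differs as well, and the hairpin and the background cannot be told apart in it. Some members were named for a change in libraries that enter these values, so their direction is partly fixed by that choice. Among them, *Cpr97Ea*, *Cpr62Bc*, *Cpr76Bd* and *Ccp84Ab* were named for their rise in *Cbp20* against Control KK.

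For the *dlg1* hairpin the change was higher in the presence of *Cbp20* knockdown for *Cpr64Ac*, by 3.54 (1.81 with it and -1.72 without it, adjusted p = 5.8e-08), and for *Cpr72Ec*, by 1.32 (1.67 with it and 0.34 without it, adjusted p = 1.5e-06). It was lower for *Cpr92F* (-1.61, adjusted p = 6.8e-05), *Cpr76Bd* (-1.97, adjusted p = 0.00016), *Ccp84Ag* (-2.02, adjusted p = 2e-06), *Ccp84Ab* (-2.10, adjusted p = 0.021), *Cpr62Bc* (-2.51, adjusted p = 2.8e-05) and *Cpr97Ea* (-2.63, adjusted p = 0.003). *Ccp84Ag* changed by -0.44 with *Cbp20* knockdown and by 1.58 without it, and the other 5 were negative in both settings. The call of *Ccp84Ab* was lost without *dlg1* replicate 1 (-1.59, adjusted p = 0.11), *Cbp20* replicate 3 (-1.79, adjusted p = 0.056) or *Cbp20/dlg1* replicate 3 (-1.92, adjusted p = 0.057), and with the estimation of edgeR 4 (-2.06, adjusted p = 0.060).

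For the *Fsn* hairpin the change was higher with *Cbp20* knockdown for *Cpr64Ac*, by 3.18 (3.24 with it and 0.06 without it, adjusted p = 1.7e-07), and for *Cpr72Ec*, by 1.19 (1.12 with it and -0.07 without it, adjusted p = 2.2e-05). It was lower for *Cpr47Ea* (-1.22, adjusted p = 0.031), *Edg78E* (-1.55, adjusted p = 0.040), *Cpr76Bd* (-1.59, adjusted p = 0.004), *Cpr62Bc* (-1.82, adjusted p = 0.002), *Lcp65Ag2* (-2.15, adjusted p = 0.003), *Cpr97Ea* (-2.36, adjusted p = 0.019), *Ccp84Ag* (-2.50, adjusted p = 1.8e-06) and *Ccp84Ab* (-3.07, adjusted p = 0.003). The values of *Cpr47Ea* and *Edg78E*, the smallest of these, lost their calls when most single libraries were left out, and that of *Cpr97Ea* without *Fsn* replicate 1 (-2.01, adjusted p = 0.11).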

How the results depend on the processing

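The 91 member values past both thresholds were recomputed 1402 times under the alternatives. The direction held in 1392 and was opposite in 10, all 10 of them with the control of the other background, and the call held in 1293 and was lost in 99. For 55 of the 91 values no alternative ended the call. The values with opposite direction were those of *Cpr64Ac* (3.90 in *dlg1*, -4.60 in *Cbp20*, and -2.79 and -1.36 in the *dlg1* and *Fsn* pairs), *Lcp65Ag2* (-1.06 in *Fsn*, 0.66 in *Cbp20/dlg1* and 0.37 in *Cbp20/Fsn*), *Edg78E* (0.29 in *Cbp20/dlg1* and 0.32 in *Cbp20/Fsn*) and *Ccp84Ag* (0.18 in *Cbp20/Fsn*); these genes differed between the controls. With that control the count of members called was 7 in *dlg1* and 4 in *Cbp20/Fsn*. Over the alternatives other than leaving out 1 library or dropping the fold threshold, it was 9 to 17 in *Cbp20*. In the pairs against *Cbp20* the count was then 9 to 14 for the *dlg1* pair and 10 to 15 for the *Fsn* pair. Without the fold threshold it was 11 in *dlg1* (where 9.26% of all genes were called), 12 in *Fsn* (38.2%), 18 in *Cbp20* (21.6%), 11 in *Cbp20/dlg1* (13.1%), 18 in *Cbp20/Fsn* (17.1%), 14 in Control KK against Control GD (20.9%) and 28 in the *dlg1* pair against *Cbp20* (32.2%), as that setting admits smaller changes. With at least 10 counts in every library, which left 29 of the 40 members, it was 4 in *Cbp20/dlg1*, 3 in *Cbp20/Fsn*, 2 in Control KK against Control GD and 8 in the *Fsn* interaction, and with the first sequencing run only it was 7 in the *Fsn* interaction, and the causes were not tested. Leaving out 1 library gave 3 to 3 calls in *dlg1*, 2 to 7 in *Fsn*, 7 to 12 in *Cbp20*, 5 to 8 and 5 to 6 in the *dlg1* and *Fsn* pairs, 5 to 7 in Control KK against Control GD, 13 to 15 and 13 to 16 in the *dlg1* and *Fsn* pairs against *Cbp20*, and 9 to 13 and 11 to 13 in the *dlg1* and *Fsn* interactions. Same-numbered replicates did not deviate together (correlations of -0.28 to 0.35, with no comparison in which every pair was over 0.1), so the numbers were not used for pairing. With the replicate block the counts were 3 in *dlg1*, 6 in *Fsn*, 12 in *Cbp20*, 7 in each pair, 6 in Control KK against Control GD, 13 and 15 in the pairs against *Cbp20*, and 11 and 13 in the interactions. A mean of at least 1 CPM would have kept 32 cuticle protein genes, and one of at least 0.25 CPM 47. Depth limits the members with few counts, such as *Edg78E* with 8 to 42 counts a library. The counts without members that reached the mean through 1 group, and those of the other lists without 1 library, were chosen after seeing the data.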
